A study of Mus musculus with 16 samples.

Results

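Wild-type (WT) mouse small intestinal crypts were compared with WT intestinal organoids, 8 libraries chosen by tissue and genotype out of 16 in the series. The crypt group held 4 libraries (replicates 1 to 4) and the organoids came from 2 separate experiments with 2 libraries each. The series compared mice and organoids lacking Cul4b, the scaffold of a ubiquitin ligase, with wild-type controls on a C57BL/6 background, and the 8 libraries here are its controls. The study gives its WT control as Cul4b fn/Y, that is, males whose single Cul4b copy is floxed and not deleted. Crypt controls and the organoid controls called IEC here belong to the experiment in which a Villin promoter, active in intestinal epithelium, drove Cre. The organoid controls called CAG here belong to the experiment with CAG-CreERT2, in which a ubiquitous promoter drives a tamoxifen-inducible Cre. Whether the CAG control cultures carried CreERT2 or received the drug was not given, nor were the medium and passage at which organoids were harvested. The study used adult mice in most of its experiments and does not give the age of those sequenced. The study released crypts with EDTA, and grew organoids in Matrigel with EGF, Noggin and R-spondin 1, to which an expansion medium added Wnt3a.

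The 3 count tables held 10235154 to 12433127 counts per crypt library, 7601828 to 8291154 per CAG organoid library and 15006730 to 16881395 per IEC organoid library. Each tissue and experiment had a table of its own, so tissue, experiment and table cannot be told apart by any single contrast. For this reason a gene was called only if it passed against both organoid experiments in the same direction, with an adjusted p under 0.05 and a fold of at least 2 each time. Both contrasts used the same 4 crypt libraries from the same table, so they are not independent of each other. Passing both therefore does not separate tissue from an effect of the crypt experiment or table. The study calls its replicates biological and counts the crypt knockouts by mice. For the WT crypt and organoid libraries, neither it nor the labels say which mouse or culture each came from, so the p-values measure the spread between these libraries, part of which may be technical. Expression is given as CPM (counts scaled to a common library size) after trimmed-mean scaling, and fold changes are crypts over organoids on the log2 scale, always with the CAG value first and the IEC value second.

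Crypts are the pits at the base of the intestinal villi, in which Lgr5+ stem cells sit between Paneth cells and produce absorptive enterocytes and secretory goblet, enteroendocrine and tuft cells. Crypts in the animal receive Wnt, R-spondin and BMP antagonists from stromal cells, lie beside immune cells and face microbes and food. Organoids are epithelial cultures that grow from crypts or stem cells in a gel, with the niche signals supplied in the medium and with no stroma, immune cells or live microbiota added.

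Several features of the tables bear on all that follows. In the crypt table, 49 genes had no more than 3 counts in any of the 8 crypt libraries, wild type and knockout, although each averaged at least 3 CPM in every organoid group. Of these genes, 40 lay in 10 runs of 2 or more neighbouring expressed genes. They included genes that most cells use, such as Sf1, a splicing factor, Ndufs3, a subunit of respiratory complex I, and Dgcr8, a subunit of the microRNA processor. Sf1 had 0 counts in every crypt library and 262, 253, 252 and 243 CPM in the 4 organoid libraries. All 49 genes were tested and called lower in crypts, and the 10 protein-coding genes with the largest falls were all among them. Such genes are said here only to be listed at or near 0 in the crypt table. The IEC table listed 3 genes at the floor in the same way (Hgs, Gp1bb and Ece2), and the CAG table none. The largest runs lay on chromosome 16 from Dgcr6 to Tango2, on chromosome 19 from Ppp2r5b to Sf1 and on chromosome 8 from Rab3a to Arrdc2, with 7 genes each, and the knockout libraries come from the same tables.

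**Figure D1:**
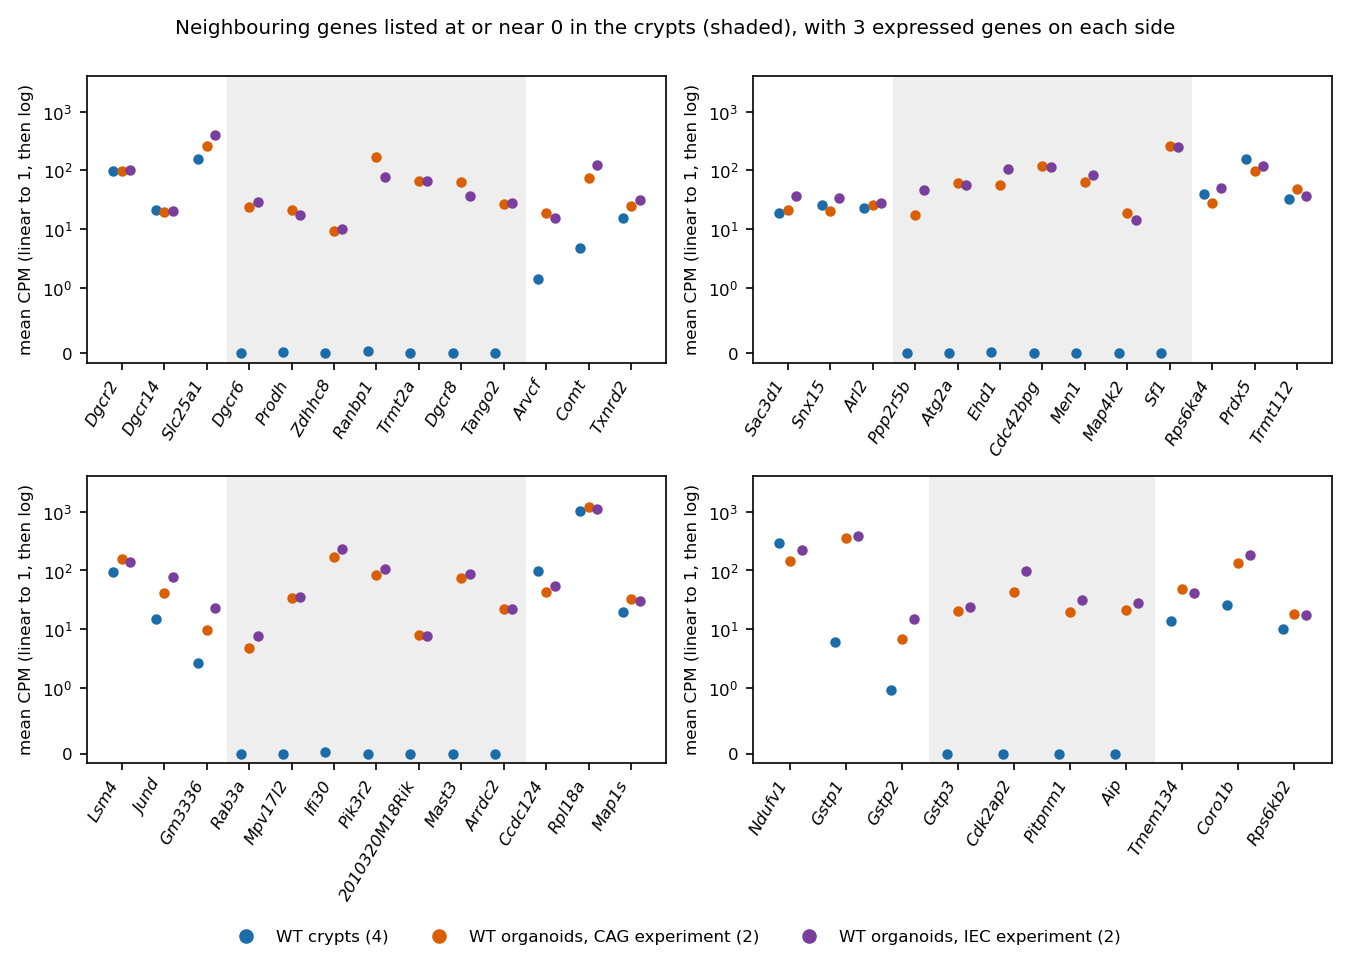
Mean CPM (linear to 1, then logarithmic) of neighbouring expressed genes in gene order, in WT crypts (4 libraries), CAG organoids (2) and IEC organoids (2), for the 4 largest runs. Genes in the shaded runs of 7, 7, 7 and 4 genes sit at or near 0 in crypts and are expressed in both organoid experiments, while some neighbours, such as Arvcf and Gstp2, have low values in crypts.

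A single library stood apart by its sex-linked genes. IEC organoid replicate 2 had 551 CPM of Xist, the RNA that silences an X chromosome in females, and 0 counts of the Y-linked genes Ddx3y, Kdm5d, Eif2s3y and Uty, which goes against the male genotype given for WT controls. The 7 other libraries had Xist at 0.0609 to 2.34 CPM and Ddx3y at 41.1 to 62.6 CPM. Without that library, 1504 genes were called against both experiments. Crypt replicate 1 stood apart by its mitochondrial ribosomal RNA, with mt-Rnr1 at 6.28 CPM against 299 to 728 CPM in the other crypts.

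Of 14903 genes tested, 3053 (20.5%) passed against CAG organoids and 2974 (20%) against IEC organoids. Against both, 934 genes (6.27%) were called higher and 938 (6.29%) lower in crypts, and 30 genes passed in opposite directions. Leaving out the 52 genes listed at the floor in 1 table left 933 higher and 889 lower. Some genes passed the low-count filter only through the libraries of 1 tissue, which favours genes that differ. Of 1051 that passed only through crypts, 391 were called higher. Of 1066 that passed only through organoids, 320 were called lower. Such genes are counted below where they make up much of a list's calls, and the plot of called shares by list marks them for every list it shows. A list with a called share near 6.27% higher or 6.29% lower does not stand apart from all tested genes. Among the genes called higher, 713 were protein coding and 130 were processed pseudogenes, whose reads can be shared with their parent genes; the figures among those called lower were 813 and 20. The organoid experiments differed from each other in 1088 genes (7.3%), and 154 of the 1872 genes called (8.23%) were among these. The rank order of libraries by similarity was plain: Pearson's r of log2 CPM across genes, which are not independent replicates, was 0.969 to 0.984 within crypts, 0.959 to 0.962 between the organoid experiments and 0.876 to 0.899 between crypts and organoids.

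The Cul4b knockout libraries gave the same contrast in other libraries, 4 of crypts and 2 of each organoid experiment. Of 859 genes called higher in WT crypts and tested in both genotypes, 464 (54.0%) were also called higher between the knockout libraries, where 4.23% of all genes were called higher. Of 903 called lower, 519 (57.5%) were called lower again, against 4.72% of all genes, and no gene was called in the opposite direction in either case. The same confounding of tissue with experiment holds there.

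The protein-coding genes with the largest differences in favour of crypts were genes known from immune cells and from the epithelium. Car4, a carbonic anhydrase of the brush border, had 120.0, 129, 85.3 and 160.0 CPM in crypt replicates 1 to 4, 0 and 0 CPM in CAG organoids and 0 and 0.0701 CPM in IEC organoids. Gsdmc2, Gsdmc3 and Gsdmc4, pore-forming gasdermins, were high in every crypt library and nearly or wholly missing in organoids, with Gsdmc4 at 100 to 274 CPM in crypts, 0.335 to 0.360 in CAG organoids and 0.210 to 1.157 in IEC organoids. The other 6 of the top 10 were Cd74, H2-Aa and H2-Eb1 of the MHC class II pathway, the granzymes Gzma and Gzmb of cytotoxic lymphocytes, and Mcpt1, a mucosal mast cell protease. Mcpt1 was at 59.7 CPM in crypt replicate 1 and at 6.70 to 7.91 CPM in the other crypts, with no count in any organoid library. In bulk samples such as these, fewer cells of a type and less RNA per cell cannot be told apart.

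Because the 10 largest falls were all genes listed at or near 0 in the crypt table, the next 10 are given, chosen after their values were seen. Cyp2c29, a cytochrome P450, had 0.0937, 0.0989, 0 and 0.688 CPM in crypt replicates 1 to 4, 82.1 and 116 CPM in CAG organoids and 233 and 273 CPM in IEC organoids. Scd1, the stearoyl-CoA desaturase that makes monounsaturated fatty acids, had 0.750, 1.09, 1.26 and 3.87 CPM in crypt replicates 1 to 4, 242 and 274 CPM in CAG organoids and 803 and 622 CPM in IEC organoids. Ak4, a mitochondrial adenylate kinase, was at 0.396 to 0.859 CPM in crypts, 86.3 to 99.6 in CAG organoids and 175 to 212 in IEC organoids. The remaining genes were Atg9b, Slc26a6, Ctrb1, Plekhd1, Gstp1, Rims4 and Cybrd1, a ferric reductase of the duodenal brush border. Gstp1 lay 19.6 kb, Slc26a6 34.4 kb and Cyp2c29 58.8 kb from a gene listed at or near 0 in crypts, and whether their values share its cause was not tested.

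**Figure D2:**
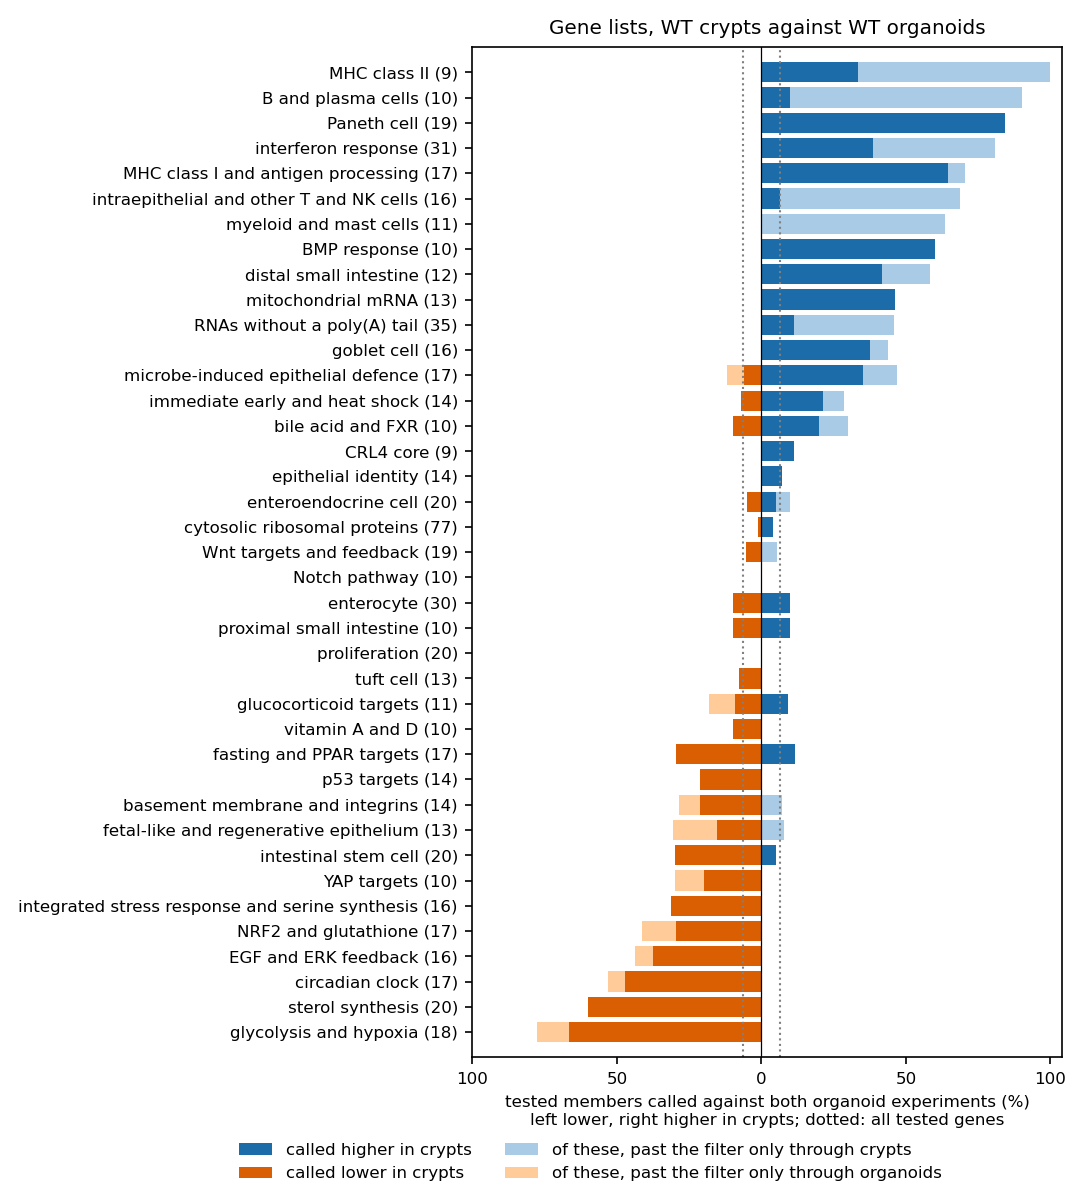
Share of tested members called higher (right) or lower (left) in WT crypts against both organoid experiments, for each gene list with at least 9 tested members (number in brackets); dotted lines mark the 6.27% and 6.29% of all tested genes. Pale bars are members that passed the low-count filter only through the tissue in which they are higher; they make up most of the bars of MHC class II and the immune cell lists and none of those of Paneth cells and sterol synthesis.

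Both tissues expressed the markers of intestinal epithelium at high levels. Of 14 genes of epithelial identity, 1 was called higher and none lower, where 6.27% and 6.29% of all tested genes were called, and Epcam, an epithelial adhesion molecule, was at 1575 to 1658 CPM in crypts, 989 to 1036 in CAG organoids and 1159 to 1304 in IEC organoids. The called gene was Krt20, a keratin of differentiated cells, at 220.1 to 698 CPM in crypts, 78.7 to 87.0 in CAG organoids and 140.5 to 144 in IEC organoids. Summed over the epithelial list, the level was 15661 to 18722 CPM in crypts, 9692 to 10166 in CAG organoids and 11716 to 14128 in IEC organoids. In 6 of the 14 genes the crypt libraries lay above every organoid library and in 1 below, beside 17.8% and 18.5% of all tested genes. Proliferation genes were close in level: none of 20 was called, with median log2 fold changes of 0.17 and -0.16 beside -0.00 and 0.01 over all tested genes. The proliferation antigen Mki67 was at 433, 589, 589 and 496 CPM in crypt replicates 1 to 4, 465 and 423 CPM in CAG organoids and 331 and 364 CPM in IEC organoids, and Pcna, the replication clamp, at 215 to 256 CPM in crypts, 290.4 to 291 in CAG organoids and 288 to 300.1 in IEC organoids.

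Stem cell genes were split. Of 20 tested, 6 were called lower and 1 (Jun) higher in crypts, with medians of -1.03 and -0.60. Lgr5, the R-spondin receptor that marks crypt base stem cells, had 25.7, 25.4, 29.1 and 26.6 CPM in crypt replicates 1 to 4, 457 and 486 CPM in CAG organoids and 201 and 239.9 CPM in IEC organoids. The 4 crypt libraries lay close together and far below every organoid library, with log2 fold changes of -4.14 ± 0.11 (SE, adjusted p = 1.9e-08) against CAG organoids and -3.05 ± 0.10 (SE, adjusted p = 1.3e-07) against IEC organoids. Lgr5 was also higher in CAG than in IEC organoids. The other stem genes called lower were Nrn1 (4.81 to 5.74 CPM in crypts, 64.2 to 70.3 in CAG organoids and 59.1 to 68.8 in IEC organoids), Smoc2, Soat1, Rgmb and Aqp4. Olfm4, another marker of crypt base cells, did not pass (1333 to 2163 CPM in crypts, 1457 to 1906 in CAG organoids and 1862 to 2977 in IEC organoids), nor did Ascl2, the transcription factor of stem cells (13.0 to 17.9 CPM in crypts, 12.3 to 14.5 in CAG organoids and 28.0 in IEC organoids). The stem cell markers thus did not move as a block: Lgr5 lay far apart between the tissues while Olfm4 overlapped.

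Of 19 Wnt targets and feedback genes, 1 was called lower (Fzd7, a Wnt receptor) and 1 higher (Lef1, a transcription factor of the pathway, at 1.41 CPM or less in every library), which is near the 6.27% higher and 6.29% lower among all tested genes, with medians of -0.48 and -0.23. Lef1 passed the low-count filter only through crypts. Axin2, the negative feedback gene of the pathway, was at 112 to 139 CPM in crypts, 211 to 213 in CAG organoids and 133 to 155 in IEC organoids. Myc, a growth regulator driven by Wnt, was at 55.9 to 77.4 CPM in crypts, 177 to 188 in CAG organoids and 123 to 155 in IEC organoids, log2 fold changes of -1.37 and -0.98 of which the second missed the fold threshold. No gene of 10 in the Notch pathway was called.

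BMP signalling keeps stem cell fate in check along the crypt axis, and Noggin in organoid medium blocks it. Of 10 BMP response genes, 6 were called higher in crypts and none lower, with medians of 1.24 and 1.47. Id1, which blocks the binding of other transcription factors to DNA, had 90.0, 72.4, 73.2 and 77.4 CPM in crypt replicates 1 to 4, 2.79 and 4.44 CPM in CAG organoids and 16.9 and 11.9 CPM in IEC organoids. Id3, its relative, had 92.6, 73.5, 69.5 and 83.7 CPM in crypt replicates 1 to 4, 1.45 and 0.720 CPM in CAG organoids and 5.36 and 3.57 CPM in IEC organoids, and its log2 fold changes were 6.17 ± 0.29 (SE, adjusted p = 1.4e-06) against CAG organoids and 4.15 ± 0.23 (SE, adjusted p = 2.0e-06) against IEC organoids. No organoid library reached the lowest crypt library for either gene. The inhibitory Smads showed the same order, with Smad7 at 25.3 to 32.4 CPM in crypts, 2.76 to 2.90 in CAG organoids and 8.06 to 8.53 in IEC organoids and Smad6 at 11.5 to 25.0 CPM in crypts, 1.92 to 2.12 in CAG organoids and 4.87 to 8.41 in IEC organoids. Id4 and Bambi, a decoy receptor, completed the 6. The BMP receptors did not pass: Bmpr1a was at 89.2 to 119 CPM in crypts, 113 to 125 in CAG organoids and 159 to 159.9 in IEC organoids. All the called genes but Bambi also differed between the organoid experiments, with Id1, Id3, Smad6 and Smad7 higher in IEC organoids and Id4 higher in CAG organoids.

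EGF, supplied in the organoid medium, acts through ERK. Of 16 genes of EGF signalling and ERK feedback, 7 were called lower in crypts and none higher, with medians of -1.06 and -1.35. Etv4, a transcription factor induced by ERK, had 3.37, 1.98, 2.78 and 4.98 CPM in crypt replicates 1 to 4, 82.0 and 85.0 CPM in CAG organoids and 53.3 and 62.3 CPM in IEC organoids. Its log2 fold changes were -4.66 ± 0.23 (SE, adjusted p = 1.8e-06) against CAG organoids and -4.12 ± 0.23 (SE, adjusted p = 2.1e-06) against IEC organoids. Dusp4, a phosphatase that switches ERK off, had 10.7, 7.81, 10.5 and 8.42 CPM in crypt replicates 1 to 4, 72.1 and 58.9 CPM in CAG organoids and 49.8 and 63.8 CPM in IEC organoids. Etv5, Dusp6, Spry4, Errfi1 and Areg, a ligand of the EGF receptor, also passed. The ERK feedback genes Dusp5, Spry1 and Spry2 did not, with log2 fold changes of -0.99 and -1.97, -1.13 and -0.94 and -0.51 and -0.48, nor did the receptors, Egfr being at 37.7 to 45.0 CPM in crypts, 51.9 to 52.2 in CAG organoids and 31.9 to 33.4 in IEC organoids.

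**Figure D3:**
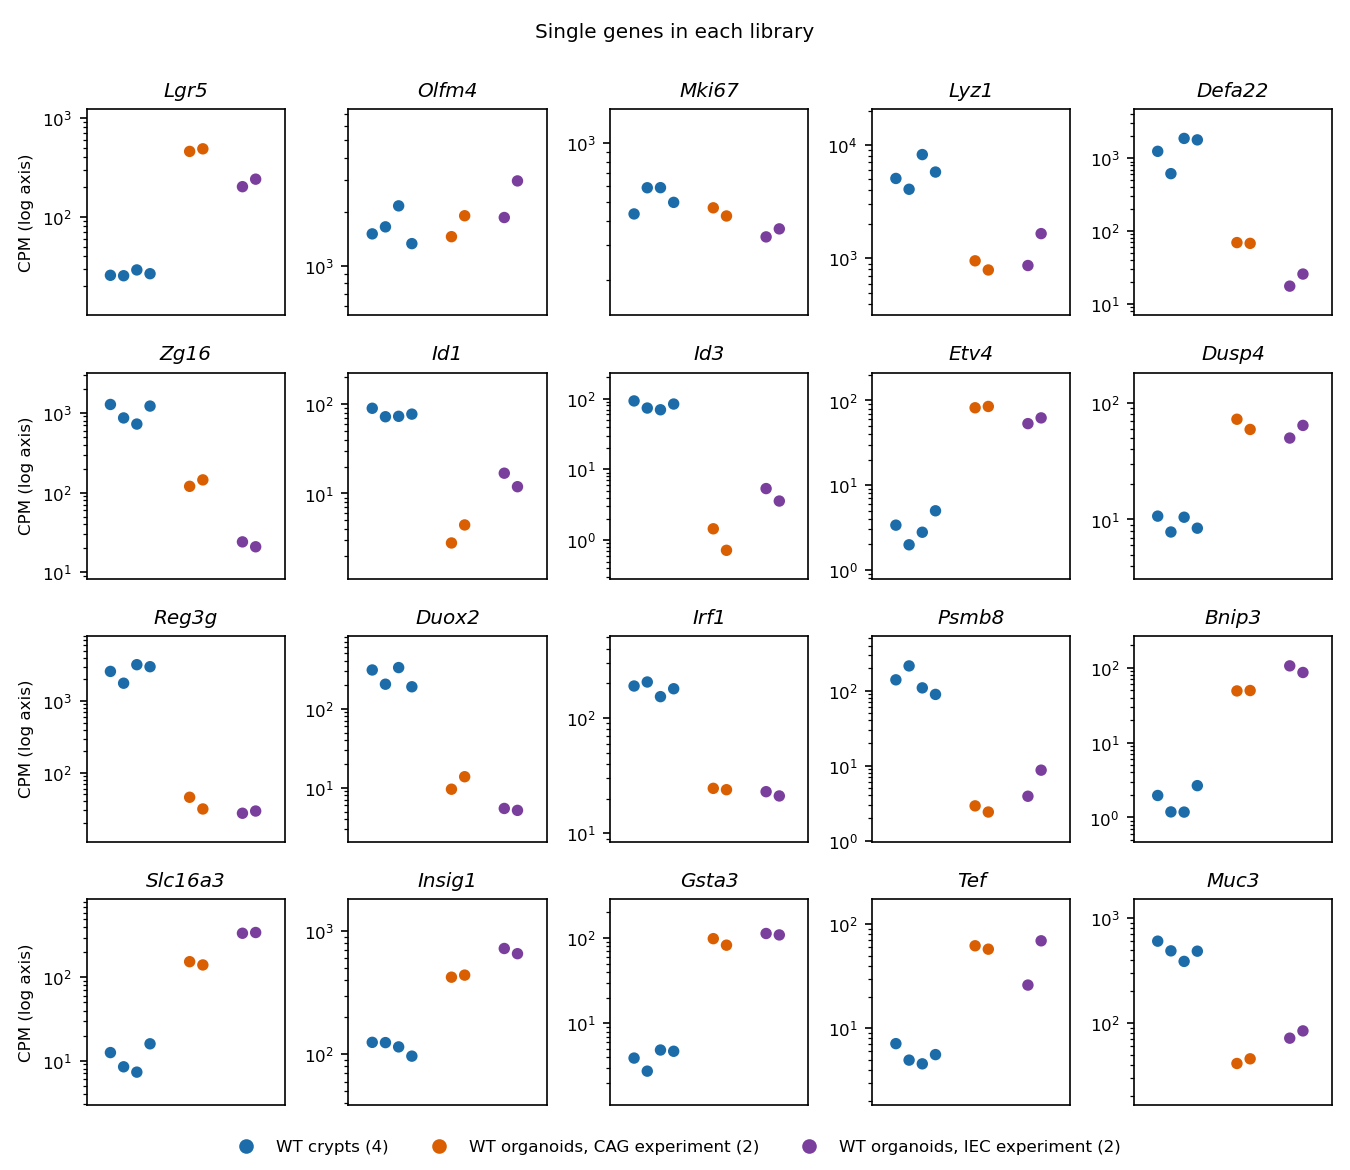
CPM (log axis) of 20 genes in each of 4 WT crypt libraries, 2 WT CAG organoid libraries and 2 WT IEC organoid libraries; each point is a library. Crypt libraries lie apart from every organoid library for all genes shown but Olfm4 and Mki67.

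Paneth cells, which secrete antimicrobial peptides and growth factors at the crypt base, differed more clearly. Of 19 tested genes, 16 were called higher and none lower in crypts, with medians of 2.64 and 2.48. The summed level was 19204, 15091, 29734 and 26624 CPM in crypt replicates 1 to 4, 6078 and 5662 CPM in CAG organoids and 3063 and 4968 CPM in IEC organoids. Crypt libraries differed among themselves as well, with replicate 3 the highest and replicate 2 the lowest, but every crypt library lay above every organoid library. Lyz1, lysozyme, had 5059, 4062, 8209.6 and 5760.3 CPM in crypt replicates 1 to 4, 952 and 790.5 CPM in CAG organoids and 865 and 1652 CPM in IEC organoids. Defa22, an alpha-defensin, had 1244, 614, 1869 and 1785 CPM in crypt replicates 1 to 4, 69.6 and 67.9 CPM in CAG organoids and 17.6 and 25.8 CPM in IEC organoids, with log2 fold changes of 4.32 ± 0.47 (SE, adjusted p = 1.4e-04) against CAG organoids and 5.99 ± 0.52 (SE, adjusted p = 3.3e-05) against IEC organoids. The alpha-defensin genes are near-identical copies whose reads can be assigned to one another, so single members are uncertain. Mmp7, the protease that activates defensins, was at 137 to 242 CPM in crypts, 59.8 to 62.0 in CAG organoids and 37.6 to 46.6 in IEC organoids. The members not called were Nupr1, Habp2 and Mptx1, which was at 1.60 to 3.09 CPM in crypts, 9.48 to 12.0 in CAG organoids and 1.26 to 1.89 in IEC organoids.

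Goblet cells secrete mucus. Of 16 tested genes, 7 were called higher in crypts and none lower, with medians of 0.62 and 1.51. Zg16, a mucus protein that binds bacteria, had 1274, 863, 723 and 1216 CPM in crypt replicates 1 to 4, 119.7 and 144 CPM in CAG organoids and 24.1 and 20.9 CPM in IEC organoids. Clca1, a mucus-processing protease, was at 476 to 749 CPM in crypts, 137 to 149.6 in CAG organoids and 13.0 to 16.3 in IEC organoids, and Agr2, which folds mucins, at 355 to 472 CPM in crypts, 167 to 168 in CAG organoids and 104.9 to 125 in IEC organoids. Muc2, the main gel-forming mucin, went another way, at 13.5, 45.8, 20.2 and 7.22 CPM in crypt replicates 1 to 4, 325 and 301 CPM in CAG organoids and 16.02 and 22.9 CPM in IEC organoids. Crypts and IEC organoids overlapped for Muc2 and CAG organoids were far above both. In 8 of the 16 genes CAG organoids were called higher than IEC organoids, beside 5.1% of all genes, and in none lower.

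Of 20 enteroendocrine genes, 2 were called higher (Sct and Pyy, gut hormones, 1 of which passed the filter only through crypts) and 1 lower (Neurog3, the factor that starts this lineage, at 3.52 to 4.13 CPM in crypts, 10.4 to 12.6 in CAG organoids and 8.47 to 11.1 in IEC organoids). Chga, a granule protein, was at 57.5 to 114 CPM in crypts, 87.1 to 95.7 in CAG organoids and 40.2 to 52.8 in IEC organoids. In 7 of these genes, among them Gcg and Cck, CAG organoids were called higher than IEC organoids, beside 5.1% of all genes. Of 13 tuft cell genes, 1 (Il17rb, an IL-25 receptor) was called lower. The called shares of both lists between crypts and organoids lay near those of all tested genes.

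Absorptive enterocyte genes varied between crypt libraries. The summed level was 15994, 11250, 8898 and 24271 CPM in crypt replicates 1 to 4, 13439 and 14253 CPM in CAG organoids and 18427 and 31078 CPM in IEC organoids. Crypt replicate 4 was the highest and replicate 3 the lowest of the crypts. Of 30 genes, 3 were called higher (Lct, Naaladl1 and Ada) and 3 lower, among them Slc2a5, a fructose transporter, and Cyp3a11, beside 6.27% and 6.29% of all tested genes. Alpi, the brush-border alkaline phosphatase, was at 76.8 to 392 CPM in crypts, 216 to 294 in CAG organoids and 889 to 899 in IEC organoids, and Apoa4, an apolipoprotein, at 99.7 to 638 CPM in crypts, 399.8 to 461 in CAG organoids and 425 to 777 in IEC organoids. These counts rested on single libraries: 9 genes were called higher without crypt replicate 3 and 0 without IEC organoid replicate 1, and 5 were called lower without crypt replicate 4 and 1 without crypt replicate 1. Slc2a5 had 26.1, 19.0, 11.5 and 41.3 CPM in crypt replicates 1 to 4, 65.2 and 74.8 CPM in CAG organoids and 142 and 390.1 CPM in IEC organoids.

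Of 12 genes of the distal small intestine, 7 were called higher in crypts and none lower, with medians of 2.23 and 2.25, beside 6.27% of all tested genes called higher. Of the 12, 3 passed the filter only through crypts, and of the 8 that passed it in both tissues 5 were called higher. Without either CAG organoid library 4 of the 12 were called higher. Muc3, a membrane mucin, had 603, 487, 387 and 484 CPM in crypt replicates 1 to 4, 41.1 and 45.5 CPM in CAG organoids and 71.6 and 84.0 CPM in IEC organoids. Slc51a, which exports bile acids from enterocytes, was at 57.6 to 133 CPM in crypts, 8.93 to 11.5 in CAG organoids and 21.3 to 23.4 in IEC organoids, and Fabp6, the ileal bile acid binding protein, at 1.19 to 18.2 CPM in crypts, 0 to 0.112 in CAG organoids and 0 to 0.210 in IEC organoids. Of 10 proximal genes, 1 was called higher (Lct, lactase) and 1 lower (Cybrd1, at 2.25 to 4.55 CPM in crypts, 130 to 143 in CAG organoids and 100 to 148 in IEC organoids). Lct was not called without crypt replicate 1 or 4 or any single organoid library. Without crypt replicate 4, or with a replicate block, 3 were called lower. Gata4, the factor that keeps proximal identity, was at 181 to 243 CPM in crypts, 191 to 199 in CAG organoids and 244 to 267 in IEC organoids. Among bile acid genes, 3 of 10 were called higher (1 without CAG organoid replicate 1) and 1 lower, Abcc2, an exporter of bile acid conjugates, at 47.9 to 146 CPM in crypts, 269 to 276 in CAG organoids and 309 to 329.7 in IEC organoids. All 3 bile acid genes called higher are also members of the distal list and were counted there. The stretch of intestine that each library came from was not given.

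Of 17 epithelial defence genes that respond to microbes, 8 were called higher in crypts and 2 lower (Sprr1a and Sprr2a1; 0 to 4 when single libraries were left out), with medians of 2.63 and 1.49. Of the 8, 2 passed the filter only through crypts, and among the 14 that passed in both tissues 6 were called higher and 1 lower. The list shares called members with those of Paneth and goblet cells. Reg3g, a lectin that kills Gram-positive bacteria, had 2581, 1769, 3202 and 3002 CPM in crypt replicates 1 to 4, 45.7 and 31.4 CPM in CAG organoids and 27.4 and 29.4 CPM in IEC organoids. Its log2 fold changes were 6.09 ± 0.32 (SE, adjusted p = 2.3e-06) against CAG organoids and 6.54 ± 0.33 (SE, adjusted p = 1.1e-06) against IEC organoids. Among its relatives in the list, Reg3b was also called higher, while Reg1, Reg3a and Reg4 did not pass, with log2 fold changes of -2.13 and -1.59, -0.95 and -1.88 and -0.46 and -0.12. Duox2, which makes hydrogen peroxide at the cell surface, had 309, 204, 331 and 189 CPM in crypt replicates 1 to 4, 9.59 and 13.8 CPM in CAG organoids and 5.48 and 5.18 CPM in IEC organoids, and its maturation factor Duoxa2 was at 17.5 to 54.0 CPM in crypts, 1.44 to 1.79 in CAG organoids and 1.10 to 1.40 in IEC organoids. Nos2, the inducible nitric oxide synthase, was at 12.9 to 25.7 CPM in crypts, 2.12 to 4.08 in CAG organoids and 1.61 to 2.92 in IEC organoids. Pigr, which carries IgA across the epithelium, did not pass the fold threshold (4962 to 5606 CPM in crypts, 3005 to 3190.2 in CAG organoids and 2409 to 3426 in IEC organoids).

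Interferons induce a broad antiviral and antibacterial programme, and MHC molecules present antigen. Of 34 interferon response genes, 31 passed the low-count filter, 13 of them only through crypts, and 25 were called higher in crypts and none lower. Of the 18 that passed it through organoids as well, 12 were called higher, and 10 of 15 were with 10 counts required in every library. Irf1, a transcription factor of the response, had 189, 205, 153 and 179 CPM in crypt replicates 1 to 4, 24.5 and 23.9 CPM in CAG organoids and 22.96 and 21.1 CPM in IEC organoids, with log2 fold changes of 2.91 ± 0.14 (SE, adjusted p = 1.6e-06) against CAG organoids and 3.04 ± 0.14 (SE, adjusted p = 7.0e-07) against IEC organoids. Isg15, a ubiquitin-like modifier, had 14.6, 8.60, 5.40 and 13.5 CPM in crypt replicates 1 to 4, 0.669 and 0.840 CPM in CAG organoids and 0.426 and 0.911 CPM in IEC organoids. Irgm1, an immunity-related GTPase, had 53.1, 76.8, 45.2 and 41.7 CPM in crypt replicates 1 to 4, 18.5 and 18.8 CPM in CAG organoids and 25.3 and 24.5 CPM in IEC organoids. Zbp1, a sensor of nucleic acids, was at 11.4 to 23.2 CPM in crypts, 0 to 0.112 in CAG organoids and 0.0609 to 0.280 in IEC organoids. Summed over the list, the level was 865, 897, 579 and 687 CPM in crypt replicates 1 to 4, 184 and 186 CPM in CAG organoids and 191 and 216 CPM in IEC organoids, with replicate 2 the highest and replicate 3 the lowest of the crypts. The members not called were Stat2, Ifit2, Oasl1, Mx1, Bst2 and Ddx58.

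The promoters of interferon genes carry short DNA elements bound by interferon regulatory factors. The promoters of 3 genes called higher in crypts are shown, of which Irgm1 was not called without crypt replicate 2. RefSeq promoter sequences (build GRCm38.p6, 250 bases before to 50 after the start) were at hand for 25 list members. The letters GAAANNGAAA, on either strand, were found in 18 of these, in 13 of the 18 called and in 5 of the 7 others, which were not called or not tested. They were found in 3.99% of all 27025 genes with a promoter sequence and in 3.69% of those tested. The letters thus did not set called members apart from the others. Capitals mark the matches, which may overlap and may lie on the reverse strand as TTTCNNTTTC; a match is a description and not a shown binding site.
Isg15 (chr4:156200769-156201068, - strand): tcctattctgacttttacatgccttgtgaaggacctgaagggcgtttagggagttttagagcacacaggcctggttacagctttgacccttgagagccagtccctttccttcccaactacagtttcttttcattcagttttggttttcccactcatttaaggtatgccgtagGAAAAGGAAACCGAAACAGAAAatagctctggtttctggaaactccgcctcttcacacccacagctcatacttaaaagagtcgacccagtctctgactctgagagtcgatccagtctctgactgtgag
Ifit1 (chr19:34640639-34640938, + strand): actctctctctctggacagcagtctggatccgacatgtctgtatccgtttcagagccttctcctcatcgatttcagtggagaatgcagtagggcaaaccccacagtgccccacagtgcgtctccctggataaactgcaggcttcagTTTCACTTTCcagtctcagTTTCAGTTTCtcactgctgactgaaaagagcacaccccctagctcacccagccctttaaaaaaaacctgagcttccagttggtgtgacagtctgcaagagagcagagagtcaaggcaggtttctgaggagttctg
Irgm1 (chr11:48871371-48871670, - strand): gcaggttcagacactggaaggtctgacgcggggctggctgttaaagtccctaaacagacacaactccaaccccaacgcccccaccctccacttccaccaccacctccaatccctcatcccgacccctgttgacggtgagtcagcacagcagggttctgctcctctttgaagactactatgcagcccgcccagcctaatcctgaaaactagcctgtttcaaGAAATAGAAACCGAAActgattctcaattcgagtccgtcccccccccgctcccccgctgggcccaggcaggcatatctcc
The same genes were at 9.95 to 21.2 CPM in crypts, 1.20 to 1.79 in CAG organoids and 1.28 to 1.61 in IEC organoids for Ifit1, and at the values given above for Isg15 and Irgm1.

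Of 10 genes of the MHC class II pathway, 9 passed the low-count filter and were called higher in crypts, but 6 of them passed it only through crypts. With 10 counts required in every library, 2 were tested and both were called. Cd74, the chaperone of class II, had 346, 812, 282 and 292 CPM in crypt replicates 1 to 4, 0 and 0 CPM in CAG organoids and 1.10 and 5.75 CPM in IEC organoids. Relative to a floor of 3 counts per library it was at least 1097-fold higher in crypts than in CAG organoids. Ciita, the master regulator of class II genes, had 9.84, 25.3, 7.93 and 10.1 CPM in crypt replicates 1 to 4, 0.558 and 0.120 CPM in CAG organoids and 0.244 and 0.490 CPM in IEC organoids. Crypt replicate 2 was the highest for both genes, and the summed class II level was 669.6, 1683, 535 and 599 CPM in crypt replicates 1 to 4, 8.59 and 8.88 CPM in CAG organoids and 14.7 and 33.9 CPM in IEC organoids. Of 17 class I and antigen processing genes, 12 were called higher and none lower. Psmb8, a subunit of the immunoproteasome, had 139, 214, 109 and 89.0 CPM in crypt replicates 1 to 4, 2.90 and 2.40 CPM in CAG organoids and 3.90 and 8.69 CPM in IEC organoids, with log2 fold changes of 5.69 ± 0.53 (SE, adjusted p = 5.6e-05) against CAG organoids and 4.46 ± 0.45 (SE, adjusted p = 9.0e-05) against IEC organoids. H2-K1, a classical class I heavy chain, did not pass (545 to 876 CPM in crypts, 555 to 562 in CAG organoids and 631 to 838 in IEC organoids).
The letters GATTGG, part of a box in class II promoters, were found in 7 of 7 members with a promoter sequence against 18.2% of all genes and 23.5% of those tested, and 2 are shown with the match in capitals on either strand.
H2-Aa (chr17:34287774-34288073, - strand): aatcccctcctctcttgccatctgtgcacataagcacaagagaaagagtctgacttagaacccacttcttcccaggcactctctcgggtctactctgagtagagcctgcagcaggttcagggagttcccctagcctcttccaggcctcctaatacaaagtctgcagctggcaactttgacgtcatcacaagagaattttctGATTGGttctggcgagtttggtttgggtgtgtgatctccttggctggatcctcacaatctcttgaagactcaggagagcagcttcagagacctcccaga
H2-Eb1 (chr17:34305617-34305916, + strand): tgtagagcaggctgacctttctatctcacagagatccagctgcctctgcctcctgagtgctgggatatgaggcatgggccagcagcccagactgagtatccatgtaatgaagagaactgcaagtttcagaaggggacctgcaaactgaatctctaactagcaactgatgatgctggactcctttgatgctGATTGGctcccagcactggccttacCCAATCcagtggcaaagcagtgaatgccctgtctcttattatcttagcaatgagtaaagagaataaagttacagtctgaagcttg

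Among immune cell markers, 16 of 18 T and NK cell genes passed the low-count filter, 14 only through crypts, and 11 were called higher. Of 14 B and plasma cell genes, 10 passed, 8 only through crypts, and 9 were called higher. Of 19 myeloid and mast cell genes, 11 passed, 10 only through crypts, and 7 were called higher. None was called lower. Most tested members passed the filter only through crypts, which favours calls of higher. Among all genes that did so, 391 of 1051 were called higher. The part of the filter in the calls of these lists was not tested. Without either CAG organoid library the counts were 7 for T and NK cells and 3 for myeloid and mast cells, and without IEC organoid replicate 1 the latter was also 3. With 10 counts required in every library, only 0, 1 and 1 genes of the 3 lists could be tested, and that setting says nothing about them. The summed level of T and NK cell genes was 121, 91.8, 33.6 and 172 CPM in crypt replicates 1 to 4, 3.46 and 2.16 CPM in CAG organoids and 4.69 and 4.41 CPM in IEC organoids. B and plasma cell genes summed to 44.8 to 99.3 CPM in crypts, 3.60 to 4.24 CPM in CAG organoids and 3.43 to 5.12 CPM in IEC organoids, and myeloid and mast cell genes to 32.8 to 114 CPM in crypts, 5.69 to 6.48 CPM in CAG organoids and 3.08 to 4.75 CPM in IEC organoids. The genes with the highest CPM in the 3 lists were Gzma, Igha, an antibody heavy chain, and Mcpt1. Gzma had 40.8, 34.1, 9.27 and 61.1 CPM in crypt replicates 1 to 4, 0 and 0 CPM in CAG organoids and 0 and 0 CPM in IEC organoids. The pan-leukocyte gene Ptprc had 8.62, 6.23, 6.74 and 18.7 CPM in crypt replicates 1 to 4, 0 and 0 CPM in CAG organoids and 0.365 and 0.280 CPM in IEC organoids. Crypt replicate 3 had the lowest sum of T and NK cell, class II and interferon genes alike, while replicate 4 was the highest for T and NK cell genes and replicate 2 for the other two. In the CAG organoids, Ptprc, Cd3e, Cd8a, Igha and Mcpt1 were at 0, and in the IEC organoids Cd8a, Igha and Mcpt1 were. Other members of the 3 immune cell lists had counts in both organoid experiments, as the summed levels show. The part of these cells in the interferon and MHC results was not tested. Of 18 fibroblast and smooth muscle genes, 7 passed the filter, and the 5 called higher passed it only through crypts. With 10 counts required in every library, 1 of the list could be tested. Dcn, a matrix proteoglycan, was at 1.69 to 2.28 CPM in crypts, 0 in CAG organoids and 0 in IEC organoids. Pdgfra, Acta2 and Des were at or below 0.494 CPM in every library. Of 5 tested stromal niche ligands, 1 was called, lower (Bmp7, at 8.77 to 14.2 CPM in crypts, 40.6 to 43.1 in CAG organoids and 34.0 to 42.0 in IEC organoids). Of 5 endothelial genes 1 was lower (Egfl7), none of 4 genes of enteric neurons and glia was called, and the red cell gene Hba-a1 was at 1.58 CPM or less in crypts and 0 in organoids.

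**Figure D4:**
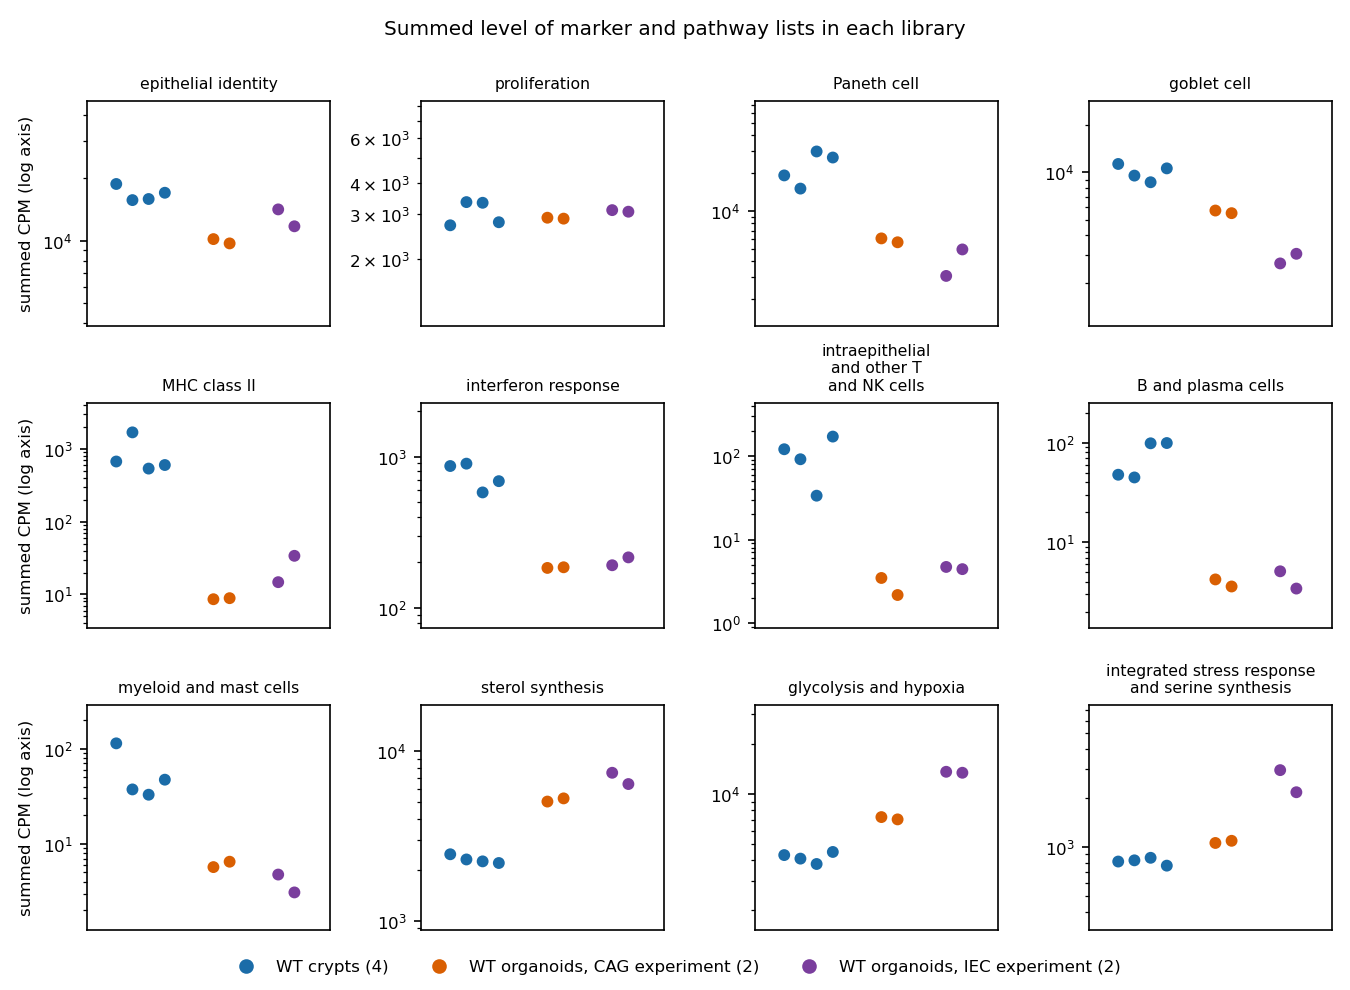
Summed CPM (log axis) of 12 gene lists in each WT crypt, CAG organoid and IEC organoid library; each point is a library. Lists of epithelial identity, immune cells, MHC class II, the interferon response and Paneth and goblet cells lie higher in all 4 crypt libraries. Sterol synthesis, glycolysis and hypoxia, and the integrated stress response and serine synthesis lie lower, while the proliferation sums overlap.

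Glycolysis and the response to low oxygen share the transcription factor HIF-1, and of 18 genes 14 were called lower in crypts and none higher, with medians of -1.58 and -2.36. Bnip3, a mitophagy receptor, had 1.97, 1.19, 1.18 and 2.66 CPM in crypt replicates 1 to 4, 49.2 and 49.8 CPM in CAG organoids and 106 and 86.8 CPM in IEC organoids. Its log2 fold changes were -4.81 ± 0.23 (SE, adjusted p = 1.4e-06) against CAG organoids and -5.77 ± 0.23 (SE, adjusted p = 2.8e-07) against IEC organoids. Slc16a3, the lactate exporter, had 12.5, 8.40, 7.25 and 15.9 CPM in crypt replicates 1 to 4, 155 and 141 CPM in CAG organoids and 340.1 and 347 CPM in IEC organoids, and Egln3, an oxygen-sensing hydroxylase, 8.06, 2.27, 2.36 and 11.3 CPM in crypt replicates 1 to 4, 98.5 and 105 CPM in CAG organoids and 284 and 231 CPM in IEC organoids. Slc2a1, the glucose transporter, was at 24.8 to 34.4 CPM in crypts, 81.8 to 85.7 in CAG organoids and 130.5 to 171 in IEC organoids, and Pdk1, which turns pyruvate away from mitochondria, at 78.4 to 86.5 CPM in crypts, 263 to 267 in CAG organoids and 312 to 362 in IEC organoids. Hk2, Ldha, Pfkp and Higd1a were not called. In 5 of the list, IEC organoids were called higher than CAG organoids, beside 2.2% of all genes. Of the 14 called lower in crypts, 2 passed the filter only through organoids.
The letters ACGTG, the core bound by HIF-1, were found in 13 of 17 list members with a promoter sequence, against 21.8% of all genes and 28.8% of those tested. They were found in 10 of the 13 called and in 3 of the 4 not called, so they did not set called members apart. The promoters of 3 genes with large falls are shown, with matches on either strand in capitals.
Bnip3 (chr7:138909457-138909756, - strand): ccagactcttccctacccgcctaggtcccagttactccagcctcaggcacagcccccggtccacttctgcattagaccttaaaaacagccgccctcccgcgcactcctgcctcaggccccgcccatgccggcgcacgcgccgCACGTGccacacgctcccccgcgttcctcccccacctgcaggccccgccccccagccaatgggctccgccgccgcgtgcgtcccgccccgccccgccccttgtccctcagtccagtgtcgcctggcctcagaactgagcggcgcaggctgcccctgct
Egln3 (chr12:54203825-54204124, - strand): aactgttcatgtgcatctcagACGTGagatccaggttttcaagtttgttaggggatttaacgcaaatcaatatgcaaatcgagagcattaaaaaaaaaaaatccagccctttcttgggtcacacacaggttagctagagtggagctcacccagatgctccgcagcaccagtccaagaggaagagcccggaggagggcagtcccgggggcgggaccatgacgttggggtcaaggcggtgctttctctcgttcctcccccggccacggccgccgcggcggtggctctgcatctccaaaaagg
Slc16a3 (chr11:120948817-120949116, + strand): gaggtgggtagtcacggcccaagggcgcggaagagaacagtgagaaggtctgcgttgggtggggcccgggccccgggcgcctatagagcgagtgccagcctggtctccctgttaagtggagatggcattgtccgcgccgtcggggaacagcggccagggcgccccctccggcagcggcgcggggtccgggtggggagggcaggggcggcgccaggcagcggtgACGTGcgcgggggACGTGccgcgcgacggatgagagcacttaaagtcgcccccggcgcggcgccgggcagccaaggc

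Of 20 sterol synthesis genes, 12 were called lower in crypts and none higher, with medians of -1.19 and -1.68. Insig1, which holds back the activation of sterol genes when sterols are plentiful, had 125, 124, 115 and 96.7 CPM in crypt replicates 1 to 4, 423 and 439 CPM in CAG organoids and 722 and 655 CPM in IEC organoids, with log2 fold changes of -1.90 ± 0.12 (SE, adjusted p = 5.6e-06) against CAG organoids and -2.58 ± 0.12 (SE, adjusted p = 6.5e-07) against IEC organoids. Sqle, which makes squalene epoxide, was at 113 to 123 CPM in crypts, 287 to 297 in CAG organoids and 317 to 392 in IEC organoids, and Fdft1, which makes squalene, at 77.9 to 99.3 CPM in crypts, 196 to 201 in CAG organoids and 266 to 284 in IEC organoids. The crypt libraries lay below every organoid library in 19 of the 20 genes, compared with 18.5% of all tested genes. Of 17 fasting and PPAR target genes, 5 were called lower (3 without CAG organoid replicate 2), among them Acot1 (5.34 to 15.8 CPM in crypts, 78.9 to 80.9 in CAG organoids and 169.7 to 206 in IEC organoids) and Angptl4, an inhibitor of lipoprotein lipase, and 2 higher, Cpt1a, which admits fatty acids to mitochondria (249 to 352 CPM in crypts, 105.3 to 118 in CAG organoids and 135 to 159.7 in IEC organoids), and Vnn1.

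The integrated stress response raises amino acid and serine synthesis through ATF4. Of 16 genes, 5 were called lower in crypts (Slc7a11, Trib3, Psat1, Phgdh and Ddit4), and none higher, and 8 were called lower without crypt replicate 3. Phgdh, the first enzyme of serine synthesis, had 31.6, 34.7, 35.1 and 28.5 CPM in crypt replicates 1 to 4, 104 and 94.6 CPM in CAG organoids and 301 and 247 CPM in IEC organoids. The organoid experiments stood far apart in this list: 13 of the 16 were called higher in IEC than in CAG organoids, beside 2.2% of all genes. Chac1, which degrades glutathione, had 1.97, 1.48, 3.71 and 1.38 CPM in crypt replicates 1 to 4, 3.46 and 2.88 CPM in CAG organoids and 39.4 and 17.7 CPM in IEC organoids, and its IEC minus CAG log2 difference was 3.17 ± 0.50 (SE). Of 17 genes of glutathione and of NRF2, the regulator of antioxidant genes, 7 were called lower in crypts and 8 were called higher in IEC than in CAG organoids. Gsta3, a glutathione S-transferase, had 3.94, 2.77, 4.89 and 4.73 CPM in crypt replicates 1 to 4, 97.8 and 82.1 CPM in CAG organoids and 112 and 108 CPM in IEC organoids and differed little between the organoids. Nqo1, a quinone reductase, had 42.2, 44.7, 42.4 and 45.0 CPM in crypt replicates 1 to 4, 27.4 and 29.5 CPM in CAG organoids and 98.2 and 109 CPM in IEC organoids, so that crypts lay between the organoid experiments. Glutathione S-transferases have close copies that can share reads.

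**Figure D5:**
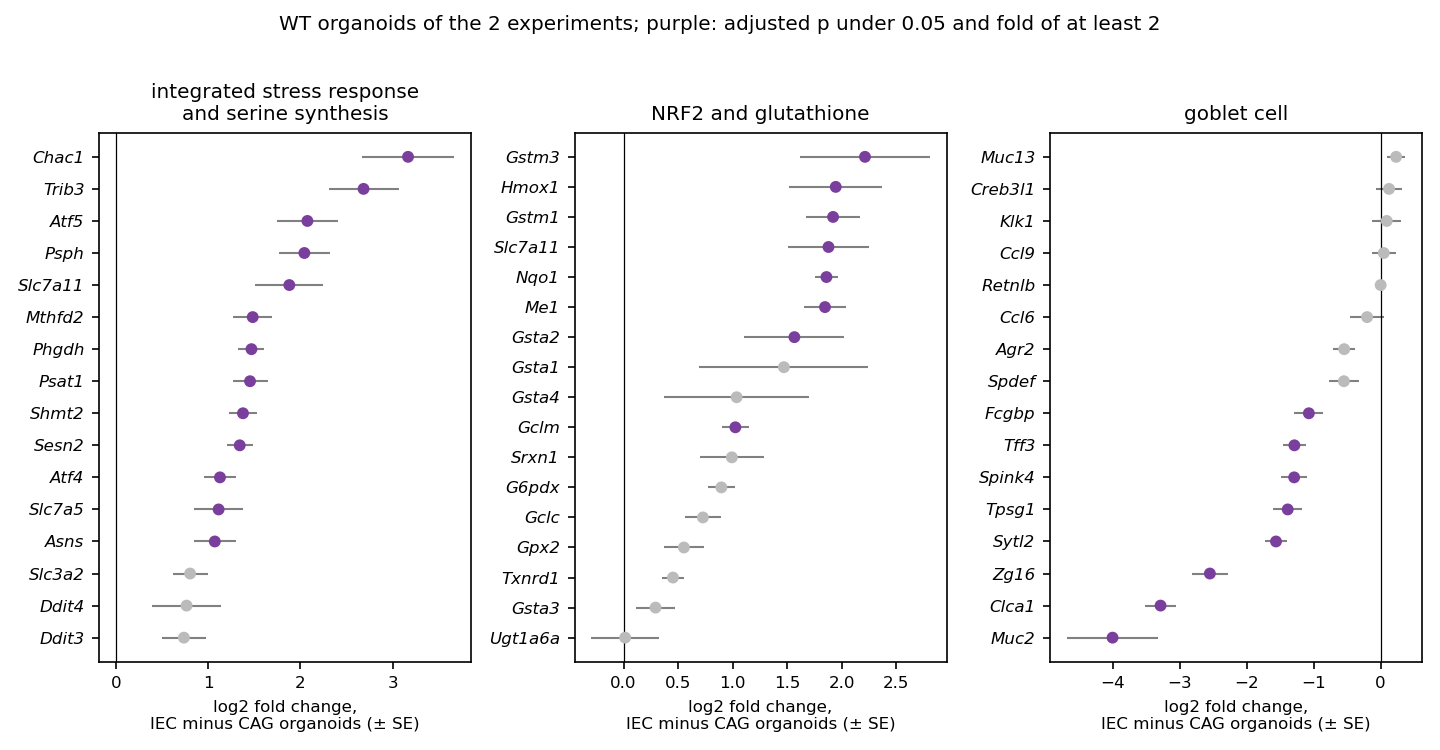
Log2 fold change (± SE) of IEC minus CAG WT organoids, 2 libraries each, for members of 3 lists; purple marks an adjusted p under 0.05 with a fold of at least 2. Stress response genes lie to the right of 0, 13 of 16 called, and 8 of 16 goblet cell genes lie to the left and are called; Retnlb had no count in any organoid library.

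Clock genes were mostly lower in crypts, 9 of 17 being called lower and none higher. Tef, a clock output factor, had 7.12, 4.94, 4.55 and 5.59 CPM in crypt replicates 1 to 4, 62.3 and 57.7 CPM in CAG organoids and 26.1 and 69.5 CPM in IEC organoids, and Dbp, its relative, 0.430 to 0.843 CPM in crypts, 8.81 to 8.88 in CAG organoids and 2.31 to 12.0 in IEC organoids. Per2, a repressor of the clock, was at 6.72 to 9.56 CPM in crypts, 27.5 to 30.5 in CAG organoids and 19.7 to 30.1 in IEC organoids, while the activators Clock (79.9 to 104 CPM in crypts, 91.0 to 98.2 in CAG organoids and 92.6 to 99.9 in IEC organoids) and Arntl (51.1 to 62.6 CPM in crypts, 22.4 to 24.7 in CAG organoids and 29.7 to 49.1 in IEC organoids) were not called. The hour at which samples were taken was not given. Of 14 immediate early and heat shock genes, 4 were called higher (Fos, Fosb, Jun and Zfp36) and 1 lower (Nr4a1). With a replicate block 6 were called higher and 0 lower. With all 16 libraries in a single fit Fosb, Jun, Zfp36 and Nr4a1 were not called. Fos, a subunit of AP-1, had 314, 296, 214 and 147 CPM in crypt replicates 1 to 4, 8.14 and 9.96 CPM in CAG organoids and 16.4 and 26.8 CPM in IEC organoids, and crypt replicate 4 was the lowest crypt library for Fos, Fosb and Jun. Of 11 glucocorticoid targets, 1 was called higher (Hsd11b2) and 2 lower (the metallothioneins Mt1 and Mt2, of which Mt2 is listed at or near 0 in the crypt table). A replicate block gave 3 higher and 2 lower. Mt1 was at 131 to 182 CPM in crypts, 569.9 to 632 in CAG organoids and 380.2 to 585 in IEC organoids.

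Of 14 p53 targets, 3 were called lower (Gdf15, Phlda3 and Plk2) beside 6.29% of all tested genes, and in 7 the crypt libraries lay below every organoid library, beside 18.5%. With the adjusted p alone, 7 were lower, beside 1910 of all 14903 tested genes. Among the genes not called, Cdkn1a, the cell cycle inhibitor, was at 49.1 to 117 CPM in crypts, 104 to 117 in CAG organoids and 196 to 225 in IEC organoids. Of 10 YAP targets, 3 were called lower (Ctgf, F3 and Ajuba). Of 13 tested genes of fetal-like and regenerating epithelium, 4 were called lower (Anxa1, Anxa3, Msln and Il1rn) and 1 higher (Il33), beside 6.29% and 6.27% of all tested genes. Of the 4, 2 passed the filter only through organoids, and Il33 passed it only through crypts; among the 9 that passed in both tissues, 2 were called lower and none higher. Only 1 was called lower without IEC organoid replicate 1, and 2 when each pair of groups was fitted by itself. Clu, a marker of revival stem cells, was at 0.759 to 2.67 CPM in crypts, 10.3 to 34.3 in CAG organoids and 3.01 to 6.58 in IEC organoids. Of 14 basement membrane and integrin genes, 4 were called lower, with the laminin chains Lamb3 at 16.3, 11.6, 13.7 and 13.2 CPM in crypt replicates 1 to 4, 108 and 104.5 CPM in CAG organoids and 93.7 and 117 CPM in IEC organoids and Lamc1 at 10.2 to 14.5 CPM in crypts, 54.1 to 59.1 in CAG organoids and 54.9 to 55.6 in IEC organoids. Lama3 was called higher. The integrins Itga6 and Itgb1, which bind laminin and other matrix, were not called. Aldh1a1, which makes retinoic acid, was the only gene of 10 in the vitamin A and D list that passed (26.9 to 141 CPM in crypts, 219 to 284 in CAG organoids and 553 to 608 in IEC organoids), lower in crypts. Without single libraries 0 to 3 of the list were called lower (3 without crypt replicate 4, 0 without CAG organoid replicate 2), and 3 with a replicate block. None of 4 aryl hydrocarbon receptor genes passed.

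Cul4b, the gene the series removed, was expressed in all 8 libraries at 33.2, 34.8, 40.4 and 34.5 CPM in crypt replicates 1 to 4, 67.5 and 64.9 CPM in CAG organoids and 88.0 and 77.3 CPM in IEC organoids. All crypt libraries lay below all organoid libraries, with log2 fold changes of -0.89 ± 0.11 (SE, adjusted p = 2.3e-04) against CAG organoids and -1.21 ± 0.10 (SE, adjusted p = 3.0e-05) against IEC organoids, of which the first missed the fold threshold. Its partners in the ligase complex, Ddb1 (478 to 543 CPM in crypts, 564 to 572 in CAG organoids and 617 to 668 in IEC organoids) and Rbx1 (75.0 to 81.7 CPM in crypts, 72.4 to 75.5 in CAG organoids and 73.1 to 73.8 in IEC organoids), were not called, nor was its paralogue Cul4a, the scaffold of separate ligases (86.8 to 97.5 CPM in crypts, 107 to 113 in CAG organoids and 111 to 117 in IEC organoids). Irgm1, named above, was the only called gene of this list of 9, which includes it because the study examined it, and without crypt replicate 2 its log2 fold changes were 1.31 and 0.91, so that it was not called.

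Signs of RNA composition moved with tissue as well. Of 13 mitochondrial mRNAs, 6 were called higher in crypts and 2 without either CAG organoid library, but mt-Co3 ranged from 268 to 5277 CPM among crypt libraries, and mitochondrial genes have nuclear copies that can share reads. Mitochondrial genes took 5.04% to 6.21% of counts in crypts, 3.37% to 3.40% in CAG organoids and 3.84% to 5.03% in IEC organoids. RNAs without a poly(A) tail, mostly histone genes, were called higher in 16 of 35 tested. Of the 35, 24 passed the filter only through crypts. The count fell to 5 without CAG organoid replicate 1 and to 8 without IEC organoid replicate 2. Hist1h2ao was at 113, 232, 245 and 5.93 CPM in crypt replicates 1 to 4, 1.00 and 1.92 CPM in CAG organoids and 2.01 and 1.47 CPM in IEC organoids. Of 77 cytosolic ribosomal protein genes, 3 were called higher (0 without CAG organoid replicate 2) and 1 lower, with medians of -0.32 and -0.16. The crypt libraries lay below every organoid library in 35 of the 77 and above in 7, beside 18.5% and 17.8% of all tested genes. Their summed level was 56421 to 59130 CPM in crypts, 66433 to 74059 in CAG organoids and 62977 to 64039 in IEC organoids. The part of these features in the other results was not tested.

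Between the WT organoids of the 2 experiments, Esr1, the oestrogen receptor, stood out, at 0.0937, 0, 0 and 0.172 CPM in crypt replicates 1 to 4, 19.97 and 17.2 CPM in CAG organoids and 0 and 0.140 CPM in IEC organoids. The CreERT2 fusion contains part of an oestrogen receptor, and where these reads came from was not tested. Pnp, a purine enzyme, was at 161 to 189 CPM in crypts, 86.4 to 88.2 in CAG organoids and 0.0701 to 0.244 in IEC organoids. Hgs, Gp1bb and Ece2, which the IEC table lists at or near 0, were the others of the 5 genes that differed most in favour of CAG organoids. Among the genes higher in IEC organoids, Bco1, which cleaves beta-carotene, had 2.72, 1.19, 2.36 and 1.80 CPM in crypt replicates 1 to 4, 2.01 and 2.88 CPM in CAG organoids and 28.2 and 17.3 CPM in IEC organoids, Tmem37 17.1 to 27.3 CPM in crypts, 4.80 to 7.32 in CAG organoids and 36.2 to 99.0 in IEC organoids and Atrip, a partner of the ATR kinase, 0.516 to 0.759 CPM in crypts, 0.6002 to 0.669 in CAG organoids and 17.9 to 19.2 in IEC organoids.

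Of the 142 called genes named here, 33 lost the call when a single library was left out, and none changed direction. Without 1 or both CAG organoid libraries these were Aldh1a1, Bambi, Cd3e, Cyp3a11, Ddit4, Dusp6, Egfl7, Fabp6, Gp1bb, Hba-a1, Hist1h2ao, Id4, Jun, Lama3, Lct, Lef1, Mcpt1, Msln, Nr4a1, Pyy, Slc2a5, Sprr1a, Sprr2a1, Vnn1 and mt-Co3. Of the others, Ada, Anxa1, Il1rn, Krt20, Naaladl1 and Smad6 lost it without an IEC organoid library, Cpt1a without IEC organoid replicate 2 or crypt replicate 4, and Irgm1 without crypt replicate 2. Fits with 1 library in an organoid group take its spread to be like that of the other groups. The remaining called genes, among them Lgr5, Id1, Id3, Etv4, Dusp4, Reg3g, Duox2, Zg16, Irf1, Psmb8, Bnip3, Slc16a3, Insig1, Gsta3, Tef and Muc3, were called without each library in turn.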

How the data were processed

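RNA from WT crypts and organoids had been sequenced on an Illumina platform. The submitters' processing notes name HISAT2 2.0.5 and featureCounts 1.5.0-p3; the build and the strand setting were not given in the sources used here, and overlapping and antisense genes may therefore share reads. The authors deposited raw counts per gene in 3 tables of 52636 (crypt), 52636 (CAG) and 54532 (IEC) genes, with a gene length. Tables were joined on the 52525 gene IDs found in all of them, and 95.2% of those found in GENCODE M21, an annotation of GRCm38, had its start and end.

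The counts of the 8 WT libraries were filtered with filterByExpr (14903 genes left), scaled by TMM and fitted together with edgeR 4.0.16 (quasi-likelihood test, R 4.3.3), and the p-values were adjusted by Benjamini-Hochberg across these genes. Calls required that a gene pass an adjusted p of 0.05 and a fold of 2 against both organoid experiments in the same direction. Total counts per library were 7601828 to 16881395, so that 3 counts, used as the floor for genes at 0, correspond to 0.178 to 0.395 CPM; floors cover counting error only. In simulated counts of 14422 genes for crypts against both organoid experiments, 26.8% of 97 genes changed 2-fold and 80.7% of 93 genes changed 4-fold were called. With the adjusted p alone, 52.6% and 80.7% passed. Named genes were the 10 protein-coding genes in each direction with the largest smaller fold change (at least 10 CPM in the higher tissue, libraries not overlapping), the abundant and the most changed members of 47 lists, genes the study follows, and the 5 genes in each direction that differed most between the organoid experiments; further list members, and genes listed at or near 0 and their neighbours, were named after their values were seen. Members and lists were chosen with earlier results of these data known. Promoter sequences came from RefSeq (GRCm38.p6). Alternatives, run with DESeq2 1.42.0 where named, are given in the closing section; leaving out genes listed at the floor in 1 table or with differing gene models was chosen after seeing the data. A few list members are not reported here by name.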

Additional observations from a re-analysis of the deposited data

Results flagged for a closer look

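In crypts, a library counted as far from the others when its gap to the nearest library, divided by the range of the 4, was above Dixon's 95% critical value, which chance gives in about 1 of 20 groups. The sums of 3 of 47 lists met this. Crypt replicate 2 lay above the others for MHC class II genes (share of the range 0.883, 1683 CPM against 535 to 669.6), crypt replicate 1 for endothelial genes (0.949, 14.1 CPM against 11.9 to 12.0) and crypt replicate 3 for cytosolic ribosomal proteins (0.890, 59130 CPM against 56421 to 56718). Among 206 genes named in the text, the same measure picked out 17, namely Cck in replicate 4 (0.842, 32.7 CPM against 24.1 to 25.5), Cd74 in replicate 2 (0.880, 812 CPM against 282 to 346), Ciita in replicate 2 (0.873, 25.3 CPM against 7.93 to 10.1), Clock in replicate 1 (0.921, 79.9 CPM against 103 to 104), Cyp2c29 in replicate 4 (0.856, 0.688 CPM against 0 to 0.0989), Cyp3a11 in replicate 4 (0.873, 53.1 CPM against 3.20 to 9.56), Gzmb in replicate 3 (0.867, 3.54 CPM against 15.8 to 17.7), H2-Eb1 in replicate 2 (0.884, 234 CPM against 58.7 to 79.0), Kdm5d in replicate 2 (0.855, 29.7 CPM against 39.2 to 40.8), Mcpt1 in replicate 1 (0.977, 59.7 CPM against 6.70 to 7.91), Mt1 in replicate 2 (0.883, 182 CPM against 131 to 137), Myc in replicate 4 (0.846, 55.9 CPM against 74.1 to 77.4), Ndufs3 in replicate 3 (1.00, 0.0843 CPM against 0), Reg1 in replicate 4 (0.983, 348 CPM against 63.1 to 67.8), Scd1 in replicate 4 (0.835, 3.87 CPM against 0.750 to 1.26), Sqle in replicate 1 (0.838, 123 CPM against 113 to 114) and Zbp1 in replicate 3 (0.867, 11.4 CPM against 21.7 to 23.2). Ndufs3 was picked out on a single count. Several of these belong to the same libraries and lists, so they are not separate events, and the cause was not tested.

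The WT organoids of the CAG and IEC experiments were compared in the same fit, with an adjusted p under 0.05 by edgeR and a fold of at least 2. Among the named genes with more than 3 counts in a library of each experiment, the log2 difference of IEC minus CAG organoids was 7.001 for Xist, 4.84 for Atrip, 3.48 for Tmem37, 3.22 for Bco1, 3.17 for Chac1, 2.68 for Trib3, 2.02 for Id3, 2.00 for Id1, 1.93 for Slc2a5, 1.88 for Slc7a11, 1.86 for Nqo1, 1.86 for Gdf15, 1.70 for Smad6, 1.55 for Smad7, 1.47 for Phgdh, 1.46 for Scd1, 1.45 for Psat1, 1.43 for Slc26a6, 1.38 for Ppp2r5b, 1.36 for Cyp2c29, 1.25 for Fos, 1.23 for Acot1, 1.22 for Slc16a3, 1.17 for Pfkp, 1.16 for Ldha, 1.06 for Ascl2 and 1.06 for Ak4. On the other side it was -8.98 for Pnp, -4.01 for Muc2, -3.29 for Clca1, -2.76 for Mptx1, -2.55 for Zg16, -2.20 for Clu, -2.18 for Il1rn, -1.97 for Id4, -1.67 for Defa22, -1.48 for Gcg, -1.33 for Cck, -1.13 for Duox2 and -1.10 for Lgr5. Xist and the Y-linked genes differ between the libraries of the IEC experiment itself, as given above. Experiment, Cre line, culture and table go together in this contrast and cannot be told apart.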

How the results depend on the processing

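Against both experiments, the count of called genes was 1725 to 1930 under other scalings, the DESeq2 Wald test, separate fits of each pair of groups, all 16 libraries in a single fit or a replicate block. It was 2245 without the low-count filter and 1745 with the same gene model in all tables. A floor of 10 counts in every library gave 1012 genes (459 higher, 553 lower; 1761 against CAG, 1673 against IEC) among 11910 genes tested. With the adjusted p alone it was 3798 (1888 higher, 1910 lower; 6752 against CAG, 6146 against IEC, 3097 between organoids), and with a fold of at least 4 it was 918 (480, 438; 1352, 1451 and 336). Leaving out single libraries gave 1402 to 1989 genes against both (614 to 997 higher, 763 to 992 lower), 2184 to 3163 against CAG, 2279 to 3086 against IEC and 403 to 1301 between the organoid experiments. The lowest values against both came without a CAG organoid library, which leaves 1 in the group. Scaling by library size only took the median of all genes to -0.16 against CAG organoids (from -0.00) and to -0.15 between organoid experiments (from 0.02), and gave 856 higher and 1022 lower.

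Replicate numbers did not pair the libraries: the labels tie nothing to them, and the correlations of deviations between same-numbered libraries were -0.06 to 0.01. With the number as a block, 1930 genes were called (992 higher, 938 lower), of which 1637 were among those called without it, and 7 of the named called genes lost the call. Of the 142 called genes named in the text, 78 were called under every alternative including a fold of at least 4, and none changed direction. Of 2068 counts of list members under the alternatives, 1868 were within 1.5 times the count reported. In simulated counts, changes of 2-fold were called less often than changes of 4-fold. A change of 2-fold lies at the fold threshold itself, so its share called does not measure depth or number of libraries alone.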

Other observations

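Of the 934 genes called higher in crypts, 67 had no count in any of the 4 organoid libraries. Of the called genes, 1849 of 1872 had crypt and organoid libraries that did not overlap. Among all tested genes the libraries lay apart in 17.8% with crypts higher and in 18.5% with crypts lower. A call asks for a fold of at least 2 against both experiments, which favours such separation, so this count is no separate support.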
